A study of Mus musculus with 15 samples.

Results

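Transcripts of 9 genes of the sine oculis, eyes absent and dachshund families were measured in pituitary RNA of newborn mice: the homeodomain factors Six2, Six3, Six4, Six5 and Six6, the coactivators Eya1, Eya2 and Eya3, and the corepressor Dach1. The genes were taken by symbol from the array annotation, with every probe set (a set of short probes for 1 transcript) that names them, which gave 21 probe sets for 9 genes out of 18193 genes on the array. All 9 were measured, and 5 of them have more than 1 probe set. Probe sets of a gene are called first, second and so on by their mean signal, and the first stands for the gene unless another is named. Each RNA pool was hybridised to 1 Affymetrix mouse expression array, and values are log2 signals, so a difference of 1 is a change of 2-fold.

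Pools of 2 groups were compared, 5 per group, all at postnatal day 1 and all from mice on a high fat laboratory chow. The control group is Pit1+/+ on the DW/J background. The other group is Pit1dw/dw, homozygous for the Snell dwarf allele of the POU factor Pit1, on the same background. The titles call the pools biological replicates. How many pituitaries went into a pool, and of which sex, is unknown here.

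Six2 to Six6 bind DNA through a homeodomain beside a second conserved domain. EYA proteins do not bind DNA themselves but join those factors as coactivators and carry a phosphatase activity, while DACH proteins, related to the Ski corepressors, join the complex and repress. In the pituitary, Six3 and Six6 are known from early development of Rathke's pouch and of the ventral forebrain and eye, Six6 together with Dach corepressors has been linked to repression of cyclin-dependent kinase inhibitors in pituitary and retinal progenitors, and Eya1 is expressed in the pouch. Pit1 is needed for growth hormone, prolactin and thyrotropin beta.

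For 3 of the genes the 250 bases before a start site are shown: Six2 and Six4, whose changes in Pit1dw/dw were the largest of the homeodomain factors, and Six6, which like Six4 holds a motif of its own factor class. All come from RefSeq (GRCm38.p6) and are read 5′ to 3′ on the gene's strand. Capitals mark TCAGGTT, the MEF3 element that these homeodomain factors bind, or its reverse complement. The windows are chr17:85688255-85688504 on the minus strand for Six2, chr12:73113246-73113495 on the minus strand for Six4 and chr12:72939632-72939881 on the plus strand for Six6.
Six2: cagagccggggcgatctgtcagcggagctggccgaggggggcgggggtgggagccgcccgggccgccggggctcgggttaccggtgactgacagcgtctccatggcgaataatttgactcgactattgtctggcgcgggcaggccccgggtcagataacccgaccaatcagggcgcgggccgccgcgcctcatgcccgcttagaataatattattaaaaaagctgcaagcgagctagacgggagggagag
Six4: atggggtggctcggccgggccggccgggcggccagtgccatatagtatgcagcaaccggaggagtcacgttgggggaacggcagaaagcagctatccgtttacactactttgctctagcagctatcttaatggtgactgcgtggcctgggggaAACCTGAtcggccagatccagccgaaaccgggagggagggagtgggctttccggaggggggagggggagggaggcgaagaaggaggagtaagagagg
Six6: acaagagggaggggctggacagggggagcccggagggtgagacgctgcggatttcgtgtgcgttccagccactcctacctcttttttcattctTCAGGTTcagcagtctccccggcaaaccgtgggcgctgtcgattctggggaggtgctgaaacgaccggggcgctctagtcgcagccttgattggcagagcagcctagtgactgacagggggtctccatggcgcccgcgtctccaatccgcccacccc
The match begins 97 bases before the start site of Six4 and 157 before that of Six6. Searched on both strands, TCAGGTT was found in 3.49% of 32851 windows of that length before all start sites in the same table. The table holds windows for 7 of the 9 genes, 8 windows in all, and the second Six4 window has no match. Neither the homeodomain core TAATTA (4.84% of all windows) nor TATNCAT, the core of the Pit1 site (7.92%), is in any of the 8. A match is a description of these letters and no evidence of binding.

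Array medians lay between 4.31 and 4.43, and a signal below the median of all values, 4.35, is called dim here. Growth hormone (Gh), which needs Pit1, was 14.15 to 14.28 in Pit1+/+ and 9.76, 9.13, 7.75, 7.15 and 10.31 in pools 1 to 5 of Pit1dw/dw, so every pool followed its label. Thyrotropin beta (Tshb) was 11.67 to 12.29 in Pit1+/+ and 6.20 to 7.01 in Pit1dw/dw. Pit1+/+ pool 1 carries a genotype entry in its labels that differs from its title, source and strain, and its Gh (14.22) and Tshb (11.91) lay in the range of the other 4 Pit1+/+ pools. Pit1 RNA itself was not checked.

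Tissue markers differed between pools inside both groups. Of the ganglion and Schwann cell list 8 of 11 genes were measured, none was dim on all arrays, and their summed signal (log2 of the sum) spanned 8.62 to 13.30 in Pit1+/+ and 9.20 to 12.76 in Pit1dw/dw. The bone and cartilage list (7 of 8 measured, Matn1 and Col10a1 dim on every array) spanned 7.55 to 11.01 and 9.14 to 11.01. Of the other lists, red cells (2 of 4 measured, Hba-a1 dim throughout) spanned 5.53 to 6.25 and 5.38 to 6.98, and oral and nasal epithelium (all 5 measured and dim on every array) 5.78 to 6.125 and 5.78 to 6.05. The 6 measured anterior pituitary markers of 7, hormone genes among them, spanned 15.39 to 15.61 and 14.45 to 14.63. Results are accordingly also given without the 3 pools in which the sensory neuron gene Prph was above 7 (Pit1+/+ pool 3, Pit1dw/dw pools 2 and 3), a setting added once the values were known. That setting keeps Pit1dw/dw pool 5, whose ganglion sum of 11.69 lay above that of the left-out Pit1dw/dw pool 2 (10.91), with the neurofilament gene Nefl at 10.76, so it does not remove all pools rich in ganglion markers. The part of these tissues in the results was not tested beyond that and the covariates below. In bulk RNA, fewer cells of a type and less RNA per cell cannot be told apart.

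The comparison of Pit1dw/dw with Pit1+/+ asks how the 9 genes differ where Pit1 is mutated, within 1 strain. Six2, Six4 and Eya1 had higher means in Pit1dw/dw, by 0.45, 0.43 and 0.41 on the log2 scale, and the changes of the other 6 genes lay between -0.24 and 0.26. None of the 9 passed the threshold (adjusted p below 0.05 over all genes), where 0.770% of all genes did, 0.165% as higher and 0.605% as lower. At an unadjusted p under 0.05 there were 3, namely Six2, Six4 and Eya1, all higher, where 8.46% of all genes lay under that value, 2.97% as higher and 5.49% as lower.

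The groups did not overlap for 1 of the 9 genes, Six2, which was higher. That held for 2.78% of all genes, 0.863% as higher and 1.91% as lower. Of the 9 changes 6 were above 0 and 3 below, with a median of 0.07, and the median of all genes was -0.02. Fitted one by one, none of the 21 probe sets passed, where 0.371% of all probe sets did.

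**Figure D1:**
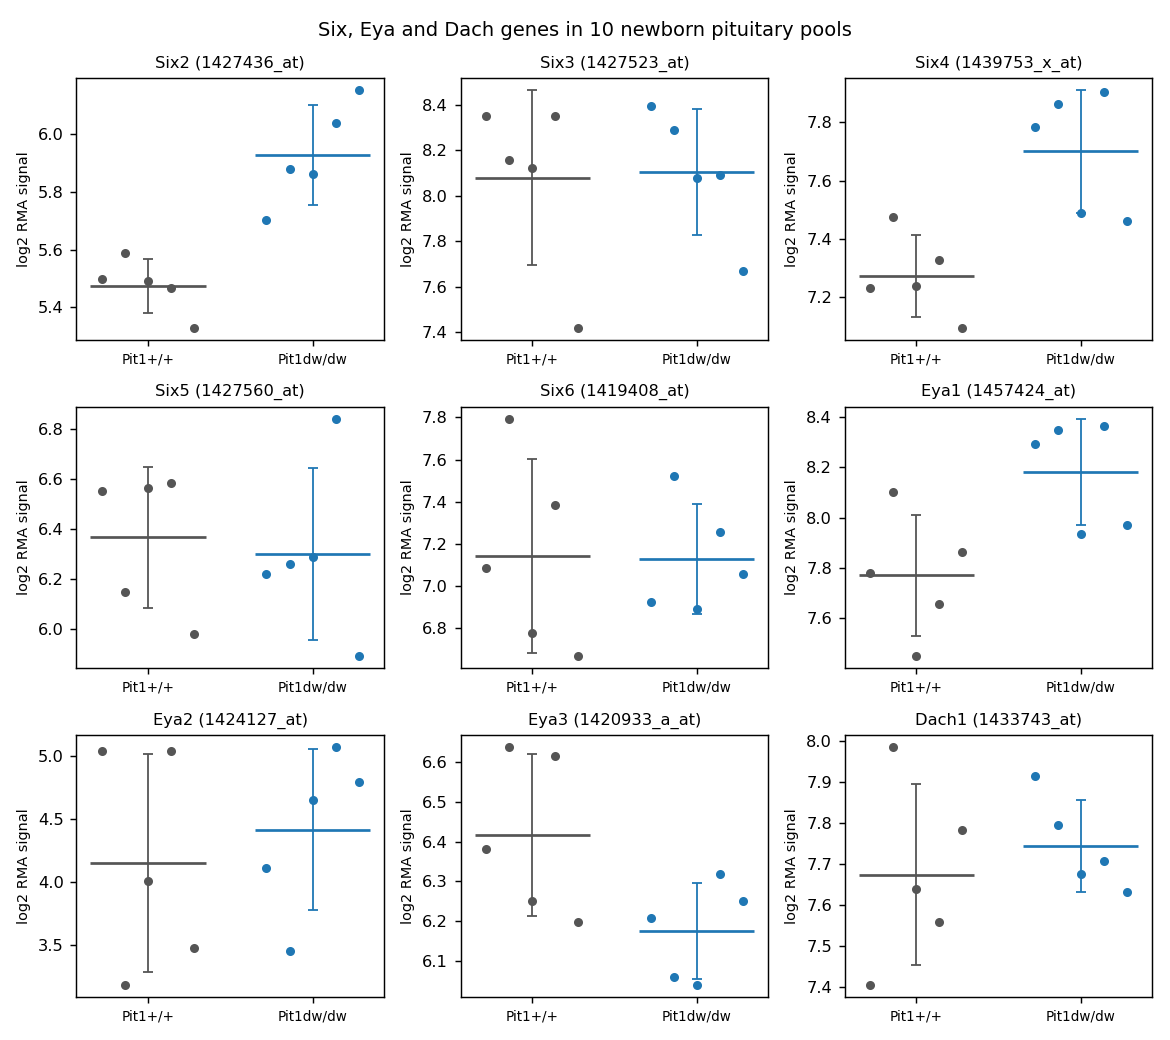
Each panel shows 1 gene, with the log2 RMA signal of every pool (points, pools 1 to 5 from left to right) and the mean with SD (bars, n = 5) in Pit1+/+ (grey) and Pit1dw/dw (blue). The Six2 points of Pit1dw/dw all lie above those of Pit1+/+. The points of Six3, Six4, Six5, Six6, Eya1, Eya2, Eya3 and Dach1 overlap between the groups.

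Among the homeodomain factors, Six2, which keeps nephron progenitors undifferentiated and is also expressed in head mesenchyme, was the gene without overlap. In pools 1 to 5 it was 5.50, 5.59, 5.49, 5.47 and 5.33 in Pit1+/+, and 5.70, 5.88, 5.86, 6.04 and 6.15 in Pit1dw/dw. The lowest Pit1dw/dw pool lay just above the highest Pit1+/+ pool. The change of 0.45 (SE 0.12, 95% interval from 0.20), a fold of 1.37, did not pass (adjusted p = 0.132), and 5.73% of all genes had a change at least as large in size.

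Six2 passed in 2 of its 22 alternatives, with array weights (0.45, adjusted p = 0.0182) and with a further quantile normalisation (0.48, 0.0438). With 1 pool left out the change lay between 0.39 and 0.51 and did not pass (adjusted p = 0.0987 to 0.327). Without the pools high in Prph it was 0.49 (0.498). Beside it, the red cell list moved with Six2. Its list mean followed Six2 with r = 0.817 over the 10 pools, or 0.795 with group means subtracted, the highest r of Six2 with any of the 8 tissue lists in both forms. The list rests on 2 genes, of which Hba-a1 was dim throughout, and Alas2, an enzyme of heme synthesis in red cell precursors, was 6.13, 5.80, 5.38, 5.98 and 5.36 in Pit1+/+, and 5.00, 5.98, 6.47, 6.74 and 6.91 in Pit1dw/dw. Pools 3, 4 and 5 of Pit1dw/dw were above all Pit1+/+ pools in Alas2. Pit1dw/dw pool 1, the lowest of all 10 in Alas2, was the lowest Pit1dw/dw pool in Six2 but above all Pit1+/+ pools. Pit1+/+ pool 1 lay above Pit1dw/dw pool 2 in Alas2 and below it in Six2. Hba-a1 was highest of all 10 in Pit1dw/dw pool 1, at 3.24. The bone and cartilage list had r = 0.118 with Six2. The anterior pituitary list had r = -0.813 over the 10 pools, nearly as large in size as that of the red cell list. With group means subtracted it had 0.335. The red cell list is not among the covariates, and its part in the Six2 change was not tested.

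Six4, expressed in muscle precursors and sensory ganglia as well, had higher means in Pit1dw/dw at each of its probe sets. With the first it was 7.23, 7.48, 7.24, 7.33 and 7.09 in Pit1+/+, and 7.78, 7.86, 7.49, 7.90 and 7.46 in Pit1dw/dw. All Pit1dw/dw pools but pool 5 were above all Pit1+/+ pools, and pool 5 lay just below Pit1+/+ pool 2. The change of 0.43 (SE 0.11, 95% interval from 0.19) did not pass (adjusted p = 0.126).

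The second Six4 probe set was 6.86, 7.24, 7.19, 7.02 and 6.91 in Pit1+/+, and 7.62, 7.62, 7.31, 7.58 and 7.34 in Pit1dw/dw. Here the groups did not overlap, and the change was 0.45 (SE 0.12, adjusted p = 0.219, fitted as a single probe set). The third was 4.93, 5.64, 4.60, 4.71 and 5.33 in Pit1+/+, and 5.61, 6.14, 5.45, 5.92 and 5.65 in Pit1dw/dw, a change of 0.71 with a wider error (SE 0.24, adjusted p = 0.391). The fourth was dim in all 10 pools and gave 0.12 (adjusted p = 0.974). These probe sets share the same RNA pools and are no independent replicates.

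Six4 passed in 1 of its 22 alternatives, with array weights (0.44, adjusted p = 0.0263). With the ganglion, bone and muscle list means as covariates the change was 0.49 (adjusted p = 0.0516), and without the pools high in Prph 0.43 (0.499). Skeletal muscle genes (8 of 8 measured, with Myog, Myh3, Myh8, Acta1 and Ckm dim on every array) summed to 6.44 to 6.75 in Pit1+/+ and 6.28 to 6.78 in Pit1dw/dw. Among them Actn2 did not overlap between the groups, at 4.43 to 5.16 in Pit1+/+ and 3.42 to 4.37 in Pit1dw/dw. Of all genes, 1.91% were lower without overlap. The other muscle genes overlapped between the groups. Tnnt3, Myh3, Acta1, Ckm and Myog had higher means in Pit1dw/dw, and Myh8 and Mylpf had lower means. The part of muscle in the Six4 change was not tested beyond the covariates.

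**Figure D2:**
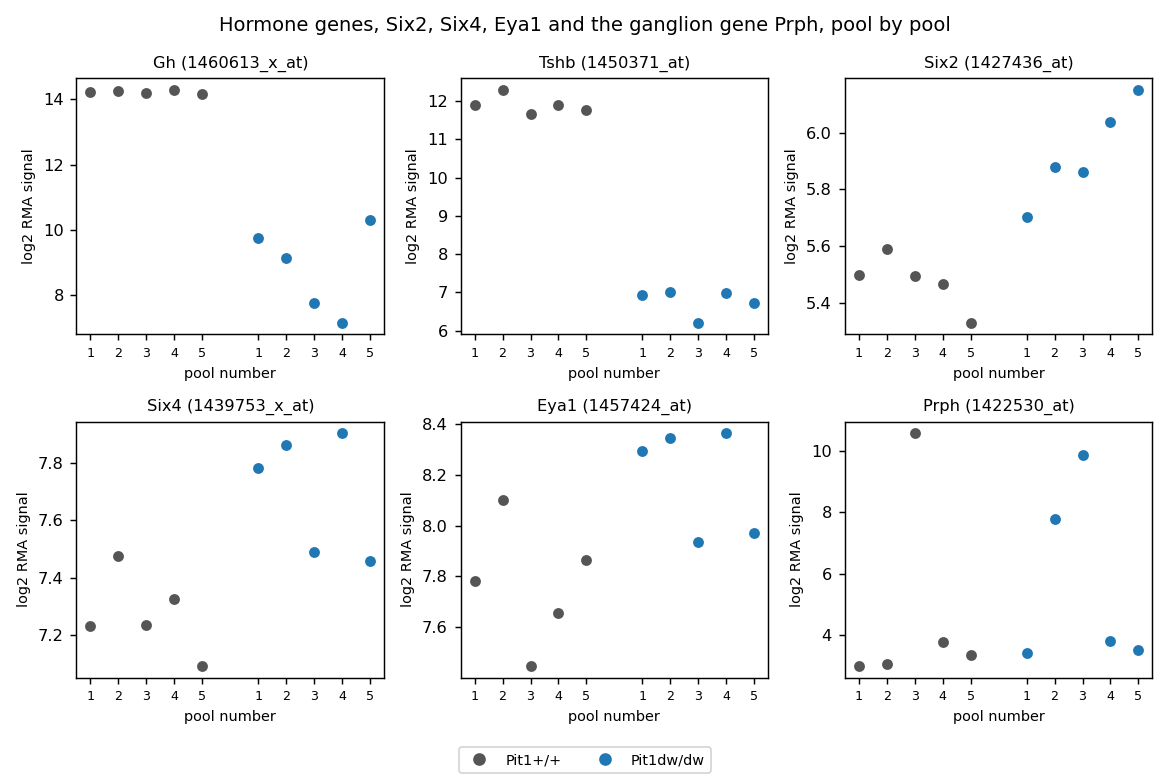
The log2 RMA signal of each of the 10 pools is plotted by pool number for the hormone genes Gh and Tshb, for Six2, Six4 and Eya1, and for the ganglion gene Prph, with Pit1+/+ in grey and Pit1dw/dw in blue. Gh and Tshb separate the groups widely, Six2 narrowly, and Prph is above 7 in Pit1+/+ pool 3 and Pit1dw/dw pools 2 and 3.

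Six3, a repressor in forebrain and eye development, gave nearly equal means. It was 8.35, 8.16, 8.12, 8.35 and 7.42 in Pit1+/+, and 8.39, 8.29, 8.08, 8.09 and 7.67 in Pit1dw/dw. In both groups pool 5 was the lowest. The means were 8.08 ± 0.38 and 8.10 ± 0.28 (SD, n = 5 each), a difference of 0.02 with a 95% interval of -0.42 to 0.47 (adjusted p = 0.993).

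At the second Six3 probe set the means were 6.06 ± 0.42 in Pit1+/+ and 6.20 ± 0.22 in Pit1dw/dw (SD, n = 5 each), a change of 0.14 (adjusted p = 0.984). The third was dim in all 10 pools, with a change of -0.15. The sign for Six3 turned with the setting: it was -0.16 with array weights, -0.018 without the pools high in Prph and -0.14 without Pit1+/+ pool 5.

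Six6, the factor closest to Six3 in the family, was 7.09, 7.79, 6.78, 7.38 and 6.67 in Pit1+/+, and 6.93, 7.52, 6.89, 7.26 and 7.06 in Pit1dw/dw. The Pit1dw/dw pools lay inside the range of Pit1+/+, and pool 2 was the highest of each group. The means were 7.14 ± 0.46 and 7.13 ± 0.26 (SD, n = 5 each), a difference of -0.01 with a 95% interval of -0.45 to 0.43 (adjusted p = 0.997), whose sign turned in 8 of 22 alternatives.

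Other tissues that use Six3 and Six6 showed the following levels. Neural lobe and hypothalamus markers (8 of 8 measured, with Nkx2-1, Avp, Vax1 and Lhx5 dim on every array) summed to 10.21 to 10.99 in Pit1+/+ and 10.27 to 10.70 in Pit1dw/dw. Retina genes (2 of 4 measured, the retina gene Crx dim on every array) summed to 3.70 to 4.85 and 3.81 to 3.91. Neither list separated the groups by its sum. In the first list Oxt did not overlap, at 4.25 to 4.73 in Pit1+/+ and 3.84 to 3.98 in Pit1dw/dw. It was above the median of all values in 3 of the 10 pools. The other genes of that list overlapped between the groups.

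Six5, which lies beside the myotonic dystrophy kinase gene, gave overlapping groups as well. It was 6.55, 6.15, 6.56, 6.58 and 5.98 in Pit1+/+, and 6.22, 6.26, 6.29, 6.84 and 5.89 in Pit1dw/dw. Both the highest and the lowest value were those of Pit1dw/dw pools, 4 and 5. The change was -0.07 (SE 0.18, 95% interval -0.45 to 0.32, adjusted p = 0.978), and 0.0012 without the pools high in Prph.

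Of the EYA coactivators, Eya1 had the largest change in mean at its first probe set. It was 7.78, 8.10, 7.45, 7.66 and 7.86 in Pit1+/+, and 8.29, 8.35, 7.94, 8.36 and 7.97 in Pit1dw/dw. Pit1dw/dw pools 1, 2 and 4 lay above all Pit1+/+ pools, while pools 3 and 5 lay below Pit1+/+ pool 2. The change of 0.41 (SE 0.15, 95% interval from 0.082), a fold of 1.33, did not pass (adjusted p = 0.412).

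The second Eya1 probe set was 4.55, 5.19, 4.34, 4.80 and 5.78 in Pit1+/+, and 5.16, 6.12, 5.58, 5.59 and 5.75 in Pit1dw/dw. Pit1+/+ pool 5 reached above all Pit1dw/dw pools but pool 2. The change was 0.71 (SE 0.28, adjusted p = 0.579, fitted as a single probe set), and it passed with array weights alone of its 18 alternatives (0.98, 0.0216). It was 0.42 without the pools high in Prph. The third probe set was dim in all pools, with a change of -0.07 (adjusted p = 0.966).

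Eya1 stood beside the ganglion markers as follows. In each group the pool with the highest mean of the ganglion list, pool 3, also had the lowest value of the first Eya1 probe set, 7.45 in Pit1+/+ and 7.94 in Pit1dw/dw. That list mean was 9.56 in Pit1+/+ pool 3 and 9.03 in Pit1dw/dw pool 3, against 7.19 or less in the other 8 pools. With the tissue list means as covariates, Eya1 passed (0.55, adjusted p = 0.0171), the only 1 of its 22 alternatives in which it did, and without the pools high in Prph the change was 0.36 (0.841).

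Eya2, a coactivator also used in muscle and sensory organs, has 1 probe set and the widest spread of the 9 genes within Pit1+/+ (SD 0.86) and within Pit1dw/dw (SD 0.64). It was 5.04, 3.18, 4.01, 5.04 and 3.48 in Pit1+/+, and 4.11, 3.45, 4.65, 5.07 and 4.79 in Pit1dw/dw. It was dim in 5 of the 10 pools, 3 of Pit1+/+ and 2 of Pit1dw/dw. The change of 0.26 (SE 0.36, 95% interval -0.50 to 1.03, adjusted p = 0.934) did not pass. It was -0.25 with array weights, and with 1 pool left out it ran from 0.023 (without Pit1+/+ pool 2) to 0.51 (without Pit1dw/dw pool 2). Pit1+/+ pool 2, lowest in Eya2, was also lowest in the bone and cartilage sum. Over the 10 pools Eya2 had r = 0.624 with the bone and cartilage list mean and 0.667 with the red cell list mean. With group means subtracted these were 0.622 and 0.693. The part of either tissue in Eya2 was not tested.

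Eya3, the most widely expressed member of its family, had lower means in Pit1dw/dw. At its first probe set it was 6.38, 6.64, 6.25, 6.62 and 6.20 in Pit1+/+, and 6.21, 6.06, 6.04, 6.32 and 6.25 in Pit1dw/dw. Pools 1, 2 and 4 of Pit1+/+ were above all Pit1dw/dw pools, and pools 3 and 5 were among them. The change of -0.24 (SE 0.15, 95% interval -0.55 to 0.072) did not pass (adjusted p = 0.736). Its other probe sets gave -0.15, -0.11 and 0.24, none of which passed, and the last 2 were dim in all pools.

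Dach1, the corepressor, was 7.40, 7.99, 7.64, 7.56 and 7.78 in Pit1+/+, and 7.92, 7.80, 7.67, 7.71 and 7.63 in Pit1dw/dw. The Pit1dw/dw pools lay inside the range of Pit1+/+. The change was 0.07 (SE 0.12, 95% interval -0.18 to 0.32, adjusted p = 0.952), and it ran from 0.0034 without Pit1+/+ pool 1 to 0.15 without Pit1+/+ pool 2. Its other 2 probe sets gave -0.06 and -0.11, neither of which passed. With the bone and cartilage list mean, Dach1 had r = -0.709 over the 10 pools and -0.749 with group means subtracted. The part of that tissue in Dach1 was not tested.

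**Figure D3:**
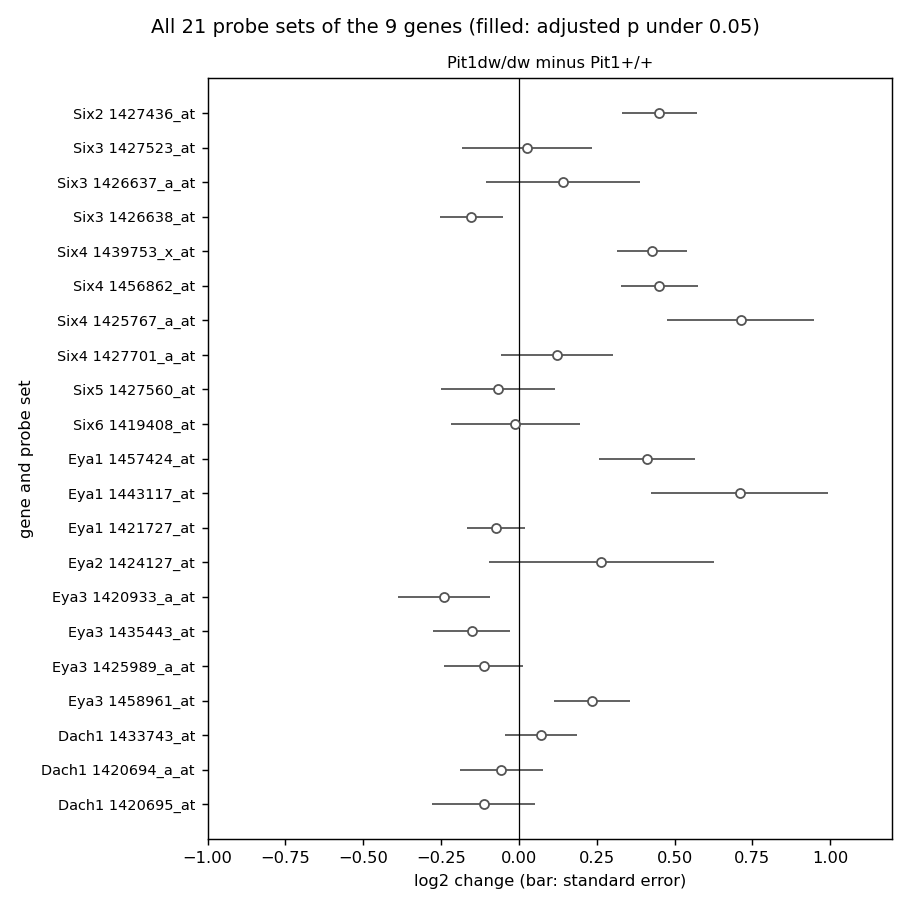
The log2 change of Pit1dw/dw against Pit1+/+ with its standard error is drawn for each of the 21 probe sets, from fits of every probe set. No point is filled, since none had an adjusted p under 0.05, and the points run from -0.24 at the first Eya3 probe set to 0.71 at the third of Six4 and the second of Eya1.

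The share of a gene's spread that lay between the groups restates its change in mean, set against the spread within groups. It is no further test. Of the variance over the 10 pools, 76.6% lay between groups for Six2, 64.1% for Six4, 50.7% for Eya1 and 39.3% for Eya3. For Dach1, Eya2, Six5, Six3 and Six6 the shares were 4.83%, 3.65%, 1.37%, 0.171% and 0.027%, all below the median of all genes, 7.14%. Of all pairs of the 9 genes, Six4 and Eya1 had the largest r over the 10 pools, 0.869. With group means subtracted that pair had 0.711, below Six4 and Six6 at 0.720, and the largest in size was -0.839, that of Eya2 and Dach1. Six2 and Six4 had 0.706, and 0.018 with group means subtracted. These are descriptions over pools that share tissue content and array effects.

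Other genes of the network around these factors, Pax genes included, were taken from a list of relatives, partners and genes reported to be regulated by these factors, of which 37 were measured. In Pit1dw/dw 1 of them fell, none rose and 36 did not pass, where 0.770% of all genes passed. At an unadjusted p under 0.05 there were 6 of 37, where 8.46% of all genes lay under that value. Of all genes, 2.97% did so as higher and 5.49% as lower. Of these 6 network genes Cdkn1c was higher, and Ccna1, Ccna2, Shh, Tle4 and Skil were lower. The groups did not overlap for 4 of the 37, namely Ccna1, Ccna2, Tle4 and Shh, all lower. That held for 1.91% of all genes as lower. Shh was dim in all pools. The median change of the list was 0.0041, against -0.02 for all genes.

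The 1 gene that passed, as lower, was Ccna1, a cyclin gene of the regulated list. It was 6.43, 6.75, 5.89, 6.44 and 6.18 in Pit1+/+, and 5.34, 5.18, 5.44, 5.15 and 5.16 in Pit1dw/dw. The groups did not overlap. The log2 change was -1.08 (SE 0.16, adjusted p = 0.00259), a fold of 2.12, and the call held in all 22 alternatives, where the change ran from -1.23 to -0.98 (adjusted p = 4.9e-05 to 0.0117).

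Of the other 16 regulated genes none passed. Ccna2, the S-phase cyclin, changed by -0.50 (SE 0.20, adjusted p = 0.459). The CDK inhibitor genes Cdkn1a, Cdkn1b and Cdkn1c, to which Six6 and Dach corepressors have been linked, changed by 0.23, -0.13 and 0.65, and the last of these had an SE of 0.20 (adjusted p = 0.248). Of the 15 partners and corepressors none passed, and Tle4, a Groucho-type corepressor chosen after its values were seen, changed by -0.44 (SE 0.11, adjusted p = 0.107). The 5 relatives did not pass. Eya4, a coactivator known from hearing and heart disease, changed by 0.28 (adjusted p = 0.743). Dach2 changed by -0.29, Pax3 by -0.08, Pax6 by 0.01 and Pax8 by -0.10. These are values of the first probe sets. The second of Eya4 had means of 6.16 in Pit1+/+ and 6.80 in Pit1dw/dw, and the second of Dach2 had 4.80 and 4.94.

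**Figure D4:**
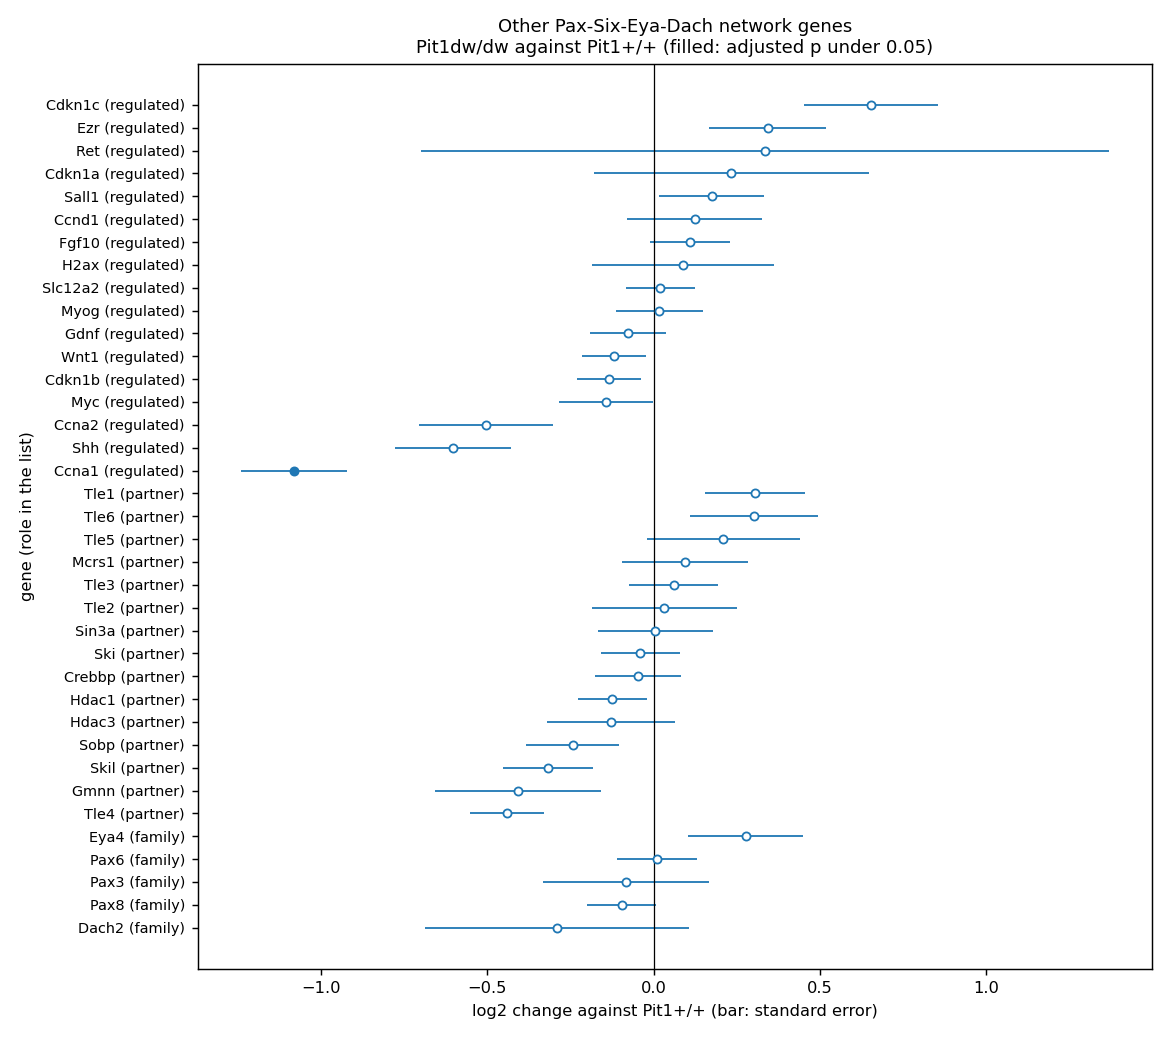
The log2 change of Pit1dw/dw against Pit1+/+ with its standard error is drawn for the 37 measured network genes, grouped by their role in the list, with filled points at an adjusted p under 0.05. Ccna1, at -1.08, is the 1 filled point.

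For each gene, the 3 genes with the most similar profile over the 10 pools were found by Pearson's r among 9096 genes above the median mean level, as a description that mixes group differences with shared tissue content and array effects. Six2 was most like Shisa2 (r = 0.959), Snhg12 (0.953) and Rps29 (0.946), and Six4 was most like Amot (0.945), Chia1 (0.937) and Tanc1 (0.920). Eya1 was most like Fgf14 (0.963), Tmem30b (0.956) and Cgn (0.951). After group means were subtracted, the first of these stood at 0.813 for Six2, 0.864 for Six4 and 0.928 for Eya1.

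Six3 was most like Plxnb1 (0.961), Bcar1 (0.948) and Baiap3 (0.945), and Six6 was most like Ngrn (0.925), Cabcoco1 (0.918) and Ube2q1 (0.915). Six5 was most like Wdr48 (0.921), Col4a6 (0.918) and 1700023D09Rik (0.902). Eya2 was most like Csf2rb (0.976), Slc26a2 (0.954) and C1qtnf6 (0.949), and Eya3 was most like D6Wsu163e (0.956), Apobec3 (0.950) and Irgm2 (0.950). Dach1 was most like Rnf11 (0.934), Hspa4l (0.874) and Mex3c (0.874).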

How the data were processed

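Total RNA of pooled newborn pituitaries was labelled as biotin cRNA, 1 array per pool, per the labels. The authors deposited log2 values made with RMA, per the submitters' processing notes (background correction, quantile normalisation and summary per probe set). The sources used here give no version of it. All values lay between 1.83 and 14.8, as a log2 scale allows. The number of arrays sets the precision.

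The arrays hold 45101 probe sets, 64 of them controls that were left out. Of the others, 34945 name 1 gene, 932 several and 9160 none, and 34741 were matched to RefSeq by gene ID. For 18193 genes the probe set of highest mean signal was used. A model of 3 group means over 15 arrays was fitted in limma 3.58.1 (R 4.3.3, lmFit and eBayes, two-sided), with Benjamini-Hochberg adjustment across all genes, or over 45037 probe sets where fitted singly. The 10 arrays of 2 groups are described here, and the other 5 enter the choice of probe set and the estimate of the spread only and are not reported. The threshold was 0.05. Intervals are 95% from the same fit.

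The genes, lists and tests were chosen with earlier results of these data known. All 9 genes are named whatever their result, network genes where they passed, and the 3 most similar genes by r. The network genes named without passing were chosen after their values were seen. Other settings tried were scaling, choice of probe set, a filter on low signals, other fits, the replicate block, left-out pools and tissue lists as covariates. Leaving out the pools high in Prph was chosen after the data were seen. The fit was tested on simulated data. Windows before start sites were searched with Python 3.11.15.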

Additional observations from a re-analysis of the deposited data

Results flagged for a closer look

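In 44 groups of 5 pools (the 21 probe sets and that of Ccna1, in 2 groups each), 1 group (2.27%) had a pool far from the others, where chance marks about 1 in 20. The first Six3 probe set was 7.42 in Pit1+/+ pool 5, and the next value was 8.12.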

How the results depend on the processing

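The count of the 9 genes past the threshold in Pit1dw/dw against Pit1+/+, 0, was 2 with array weights (Six2 and Six4), where 3.14% of all genes passed, 1 with a second quantile normalisation (Six2), where 0.764% passed, and 1 with the tissue lists as covariates (Eya1), where 0.962% passed, and 0 to 0 with 1 pool left out. The cause was not tested. The network count was 1 in each setting run, and 1 to 1 with 1 pool left out. Over all genes the count was 140, 571 with array weights and 57 without the pools with Prph above 7 (0.313%), a setting with fewer pools, and 83 to 161 with 1 pool left out. It was lowest without Pit1+/+ pool 2 (86) or 4 (86), or Pit1dw/dw pool 2 (83), 4 (93) or 5 (90).

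The direction for Six2, Six4, Eya1 and Eya3 was the same in each of their 22 alternatives. Some of these, such as the replicate block and the fit of the compared groups only, leave the estimate unchanged. They could not turn a sign. Other changes, none of which passed, turned sign as follows. Dach1 was -0.033 with the mean of its probe sets, Eya2 -0.25 and Six3 -0.16 with array weights, and Six6 0.0070 with median centring, 0.00094 with a second quantile normalisation and 0.091 with the covariates. Without the pools with Prph above 7, Six3 was -0.018 and Six5 0.0012. With 1 pool left out, Six3 ran from -0.14 to 0.13, Six5 from -0.20 to 0.036 and Six6 from -0.13 to 0.15. Eya2 ran from 0.023 to 0.51 and Dach1 from 0.0034 to 0.15.

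Whether pools with the same replicate number in their titles belong together is unknown here. The same number in both groups gave correlations of deviations from the group means of -0.20 to 0.64. These were over 0.1 in 3 of 5 pairs, and highest with the own number in 3 of 5. The main fit does not pair the pools. With the replicate number as a block, 0 of the 9 genes and 1 network gene passed. Array medians scaled to one level moved the median of all genes by less than 0.1.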
